A study of Mus musculus with 6 samples.

Results

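Macrophages are phagocytes that enter or live in tissues and can make up a large share of the host cells in a tumour. They depend on the growth factor receptor CSF1R, clear particles and dying cells through scavenger receptors and complement, and vary in which of these genes they use with their origin and surroundings. Genes of this cell type were followed here in tumours of 344SQ, a mouse lung adenocarcinoma line, after the tumour cells had been sorted on CD133. The genes are the growth factor receptor gene Csf1r, the lysosomal marker gene Cd68, the complement C1q chain genes C1qa, C1qb and C1qc, the scavenger and mannose receptor genes Mrc1, Msr1, Cd163 and Marco, and the arginase gene Arg1. They were taken as every probe set assigned to one of these 10 symbols alone, which gave 18 of the 45037 probe sets on the array and 10 of its 18193 genes. Where a gene had several probe sets it was read first from the brightest, the one with the highest mean over all arrays. The others are given beside it for these 10 genes, Ptprc and Pik3cd. All other genes named below were read from the brightest probe set only, and their direction at other probe sets was not examined.

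The 344SQ line came from a KrasLA1/+; p53R172HdelG/+ mouse, and tumours grew subcutaneously in syngeneic mice, so tumour cells and host cells share a background and the array does not tell their RNA apart. Flow cytometry split their cells by CD133 into a high and a low fraction, each measured on 3 arrays, for 6 arrays in all. The labels number no replicates, so the replicate numbers used here follow the order of the arrays within each fraction. Equal numbers imply no pairing. The sex, age and number of the host mice, and any gate against leukocytes, are not stated in the labels, and no label tells whether the 3 arrays per fraction stem from different mice, so the spread behind each p-value may be technical. Both fractions carried RNA of leukocytes and of epithelium. The pan-leukocyte gene Ptprc (CD45) stood at 12.91, 12.77 and 13.20 on CD133 low arrays, against 13.20, 12.74 and 13.04 on CD133 high arrays, on a log2 scale on which the median probe set lay between 6.60 and 6.77. A dimmer probe set of Ptprc read 7.25, 7.32 and 7.45 against 8.06, 6.28 and 6.03, with CD133 high replicates 2 and 3 lowest. The epithelial cadherin gene Cdh1 stood at 12.39, 12.36 and 12.28 against 12.39, 12.52 and 12.30. Prom1, which encodes CD133, was higher on each CD133 high array (6.80, 6.63 and 6.40) than on any CD133 low array (5.49, 5.92 and 6.06), a difference of 0.79 with an adjusted p of 0.297 from limma.

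CD133 high replicates 2 and 3 stand apart from the other arrays, and most of what follows turns on them. The spiked hybridisation controls averaged 10.19 to 10.51 on CD133 low arrays, 10.38 on CD133 high replicate 1, then 11.29 and 11.04 on replicates 2 and 3 of that fraction. For Gapdh, the 3' control probe set minus the middle one was −0.13 on CD133 high replicate 1, 0.44 and 0.46 on replicates 2 and 3, and −0.09 to −0.07 on CD133 low arrays. The part of these technical differences in the results was not tested. A fit with the hybridisation controls as a covariate is given, but it leans on CD133 high replicate 1 and cannot separate fraction from technical differences. Differences below are log2 values of CD133 high less those of CD133 low, with all 6 arrays and then without CD133 high replicate 1. Leaving out each array in turn was planned, and this exclusion was followed further with the array values known. The second comparison sets 2 arrays against 3. In it, the hybridisation controls and the Gapdh measure divide the arrays exactly as the fractions do. Fraction and technical differences therefore cannot be told apart there.

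Promoter sequence was matched for 6 of the 10 genes in the RefSeq table (build GRCm38.p6). It is printed for 5 of them because these genes went in opposite directions on CD133 high replicates 2 and 3: Cd163 and Mrc1 were higher there, Cd68 and C1qb lower, and C1qc, the neighbour of C1qb on chromosome 4, higher. Each stretch is the 250 bases before the gene's start, 5′ to 3′ along the gene. Capitals mark the letters GAGGAA or their reverse complement TTCCTC, the core that the macrophage and B-cell transcription factor PU.1 (encoded by Spi1) is known to bind.
Cd163 (chr6:124304401-124304650, plus strand): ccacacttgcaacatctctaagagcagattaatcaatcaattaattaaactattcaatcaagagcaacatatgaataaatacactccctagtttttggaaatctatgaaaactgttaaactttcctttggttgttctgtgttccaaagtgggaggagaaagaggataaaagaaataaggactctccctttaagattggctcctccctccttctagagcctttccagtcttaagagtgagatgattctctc
Mrc1 (chr2:14229164-14229413, plus strand): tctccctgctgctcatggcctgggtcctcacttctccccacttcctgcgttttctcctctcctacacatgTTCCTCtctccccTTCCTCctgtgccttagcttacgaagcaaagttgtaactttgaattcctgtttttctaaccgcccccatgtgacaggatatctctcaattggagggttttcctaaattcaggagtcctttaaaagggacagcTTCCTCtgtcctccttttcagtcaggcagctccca
Cd68 (chr11:69666171-69666420, minus strand): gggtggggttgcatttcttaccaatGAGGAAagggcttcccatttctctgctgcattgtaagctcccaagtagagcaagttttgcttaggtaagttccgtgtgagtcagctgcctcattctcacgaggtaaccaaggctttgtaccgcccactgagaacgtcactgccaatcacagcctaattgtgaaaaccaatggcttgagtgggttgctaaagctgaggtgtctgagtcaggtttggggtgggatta
C1qb (chr4:136886201-136886450, minus strand): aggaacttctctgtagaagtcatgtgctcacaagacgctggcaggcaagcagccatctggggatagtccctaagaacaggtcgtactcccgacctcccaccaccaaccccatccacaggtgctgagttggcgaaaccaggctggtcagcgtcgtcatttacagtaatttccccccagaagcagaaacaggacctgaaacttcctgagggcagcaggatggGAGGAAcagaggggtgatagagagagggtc
C1qc (chr4:136892915-136893164, minus strand): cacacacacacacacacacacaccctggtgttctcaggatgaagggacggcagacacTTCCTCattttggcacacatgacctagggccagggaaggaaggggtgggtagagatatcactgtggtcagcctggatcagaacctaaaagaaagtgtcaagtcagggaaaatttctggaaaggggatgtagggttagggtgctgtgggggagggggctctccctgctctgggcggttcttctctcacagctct
The core was found in either orientation in 5 of the 6 matched promoters, Marco included, and 23.3% of 32851 promoters of the same length hold it. Mrc1 held it 3 times, and Cd68, C1qb, C1qc and Marco once each. Cd163 did not hold these letters in this window. A match describes letters only.

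No macrophage gene passed the test over all 6 arrays. At the brightest probe sets 0 of 10 genes were called by limma at an adjusted p under 0.05, against 0.253% of all genes, and the smallest adjusted p was 0.297. At an unadjusted p under 0.05, 2 of the 10 were higher and 0 lower, against 18.2% of all genes in either direction. Of the 10 differences 6 were positive and 4 negative, with a median of 0.12, and the median over all genes was 0.0013. On CD133 high replicates 1, 2 and 3 the median of the 10 genes lay 0.14, 0.12 and 0.10 above the CD133 low mean. The near-level median holds genes that differed in opposite directions by more than the spread of the CD133 low arrays.

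**Figure D1:**
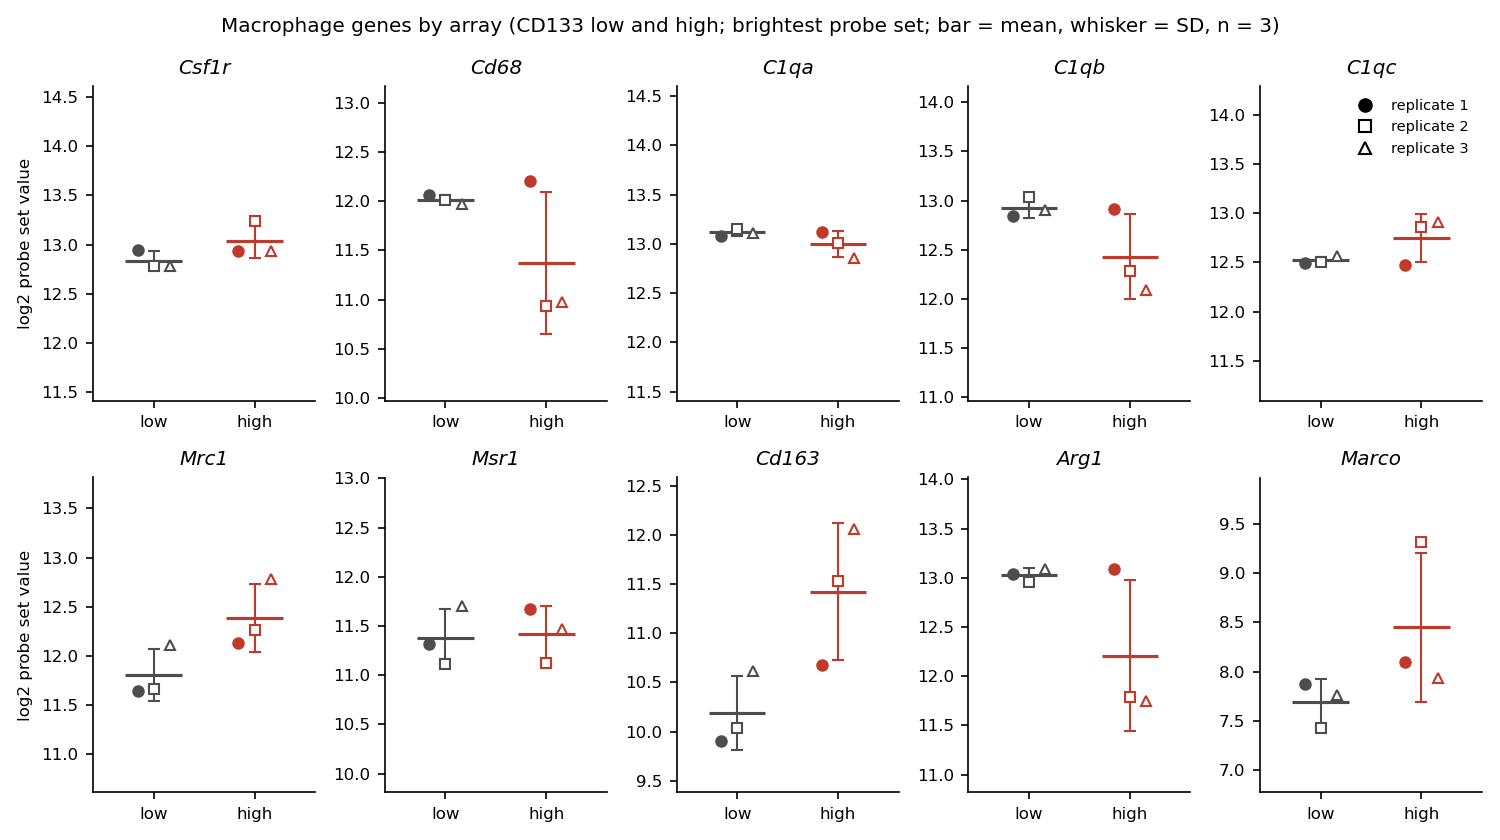
Log2 value of each of the 10 genes at its brightest probe set on the 3 CD133 low arrays (grey) and the 3 CD133 high arrays (red), with the mean as a bar and the SD as a whisker; every panel spans the same log2 range. Cd163, Mrc1 and Marco show no overlap of the groups, whereas Cd68, Arg1 and C1qb are low on CD133 high replicates 2 and 3 and not on replicate 1.

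Cd163, the scavenger receptor for haemoglobin and haptoglobin complexes found on many resident macrophages, showed the largest difference of the 10. Its probe set (1419144_at) read 9.90, 10.04 and 10.62 on CD133 low arrays, against 10.68, 11.53 and 12.06 on CD133 high arrays. The groups did not overlap, but CD133 low replicate 3 came within reach of CD133 high replicate 1. The means were 11.42 ± 0.697 and 10.19 ± 0.379 (SD, n = 3 arrays each). The difference was 1.24 (SE 0.37, 95% interval 0.35 to 2.12), or 2.35-fold on the linear scale, and did not pass (limma, adjusted p = 0.297).

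With CD133 high replicate 1 left out, Cd163 rose by 1.61 (limma, adjusted p = 0.0141; 0.0141 to 0.812 over the alternatives). CD133 high replicate 1 alone lay 0.49 above the CD133 low mean, in the same direction.

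Mrc1, the mannose receptor CD206, is a lectin of tissue and alternatively activated macrophages. Its probe set (1450430_at) read 11.65, 11.67 and 12.11 on CD133 low arrays, against 12.13, 12.26 and 12.78 on CD133 high arrays. The fractions did not overlap, and the order of the arrays was the one seen for Cd163: CD133 low replicate 3 was the highest of its group, and CD133 high replicate 3 was the highest of all. The difference was 0.58 (SE 0.23, 95% interval 0.03 to 1.14, limma adjusted p = 0.311). It was 0.71 without CD133 high replicate 1 and did not pass there either (limma, adjusted p = 0.0729).

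Marco, a class A scavenger receptor best known from alveolar and marginal zone macrophages, was high on a single array. Its brighter probe set (1458297_s_at) read 7.87, 7.43 and 7.76 on CD133 low arrays, against 8.10, 9.32 and 7.94 on CD133 high arrays. The groups did not overlap, with CD133 high replicate 2 alone far above the rest. The difference of 0.76 (SE 0.38, 95% interval −0.14 to 1.66) had an adjusted p of 0.355 from limma, and it was 0.33 without CD133 high replicate 2. The other probe set (1449498_at) read 6.65, 6.44 and 6.35 against 6.47, 7.07 and 6.36. There too CD133 high replicate 2 was highest, but the groups overlapped and the difference was 0.15.

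Cd163, Mrc1 and Marco were the 3 of 10 genes with all CD133 high arrays on the upper side, and 10.8% of all genes showed this. None of the 10 had all CD133 high arrays on the lower side at its brightest probe set, which 12.8% of all genes did.

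Msr1, the macrophage scavenger receptor A that takes up modified lipoproteins, gave different answers by probe set. The brightest (1448061_at) read 11.31, 11.12 and 11.70 on CD133 low arrays, against 11.67, 11.12 and 11.47 on CD133 high arrays. The ranges nearly coincided and the difference was 0.04 (95% interval −0.48 to 0.57). The next (1422062_at) read 10.66, 10.66 and 10.59 against 10.75, 9.92 and 10.09, so that CD133 high replicates 2 and 3 lay below all other arrays. The other 2 probe sets of Msr1 were likewise lowest on CD133 high replicates 2 and 3, with differences of −0.49 (1425434_a_at) and −0.41 (1425435_at).

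The 3 dimmer probe sets of Msr1 fell when CD133 high replicate 1 was left out, by 0.63, 0.80 and 0.71 (limma, adjusted p = 0.0133, 0.0267 and 0.0214), and the brightest differed by −0.08 (adjusted p = 0.814). Which part of the Msr1 transcript each probe set reads was not analysed here.

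Cd68, a heavily glycosylated protein of lysosomes and endosomes and a general macrophage marker, split the CD133 high arrays. Its single probe set (1449164_at) read 12.06, 12.02 and 11.97 on CD133 low arrays, against 12.21, 10.93 and 10.97 on CD133 high arrays. CD133 high replicate 1 was the highest array of all, and replicates 2 and 3 were the lowest, 1.08 and 1.04 below the CD133 low mean. Over all arrays the difference was −0.64 (SE 0.35, 95% interval −1.47 to 0.18, limma adjusted p = 0.381). With replicate 1 left out Cd68 fell by 1.06 (limma, adjusted p = 0.00332; 0.00332 to 0.943 over the alternatives).

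Arg1, arginase 1, splits arginine into ornithine and urea and is prominent in tumour-associated and alternatively activated myeloid cells. Its probe set (1419549_at) read 13.04, 12.95 and 13.09 on CD133 low arrays, against 13.09, 11.79 and 11.75 on CD133 high arrays. As for Cd68, CD133 high replicate 1 lay with the CD133 low arrays and replicates 2 and 3 lay far below, by 1.23 and 1.28. The difference over all arrays was −0.82 (SE 0.37, 95% interval −1.69 to 0.05, limma adjusted p = 0.331). Arg1 without that replicate fell by 1.26 (limma, adjusted p = 0.0029; 0.0029 to 0.99 over the alternatives).

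The C1q chains assemble with each other into the recognition unit of the classical complement pathway, and tissue macrophages are a main source of them. The genes C1qb, C1qc and C1qa lie side by side, in that order, on chromosome 4, with 0 other annotated genes between them. C1qa (1417381_at) read 13.08, 13.15 and 13.11 on CD133 low arrays, against 13.12, 13.01 and 12.86 on CD133 high arrays. The groups overlapped and the difference was −0.12 (95% interval −0.50 to 0.25, limma adjusted p = 0.704).

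C1qb was low on CD133 high replicates 2 and 3 at each of its probe sets. Its brightest probe set (1434366_x_at) read 12.84, 13.04 and 12.90 on CD133 low arrays, against 12.92, 12.29 and 12.09 on CD133 high arrays. Those replicates lay below all other arrays. One further probe set (1417063_at) read 12.86, 12.88 and 12.83 against 12.66, 11.99 and 11.85, with no overlap, and the other (1437726_x_at) read 12.57, 12.87 and 12.61 against 12.78, 11.93 and 11.80. The 3 differences were −0.49, −0.69 and −0.52, and none passed over all arrays (limma, smallest adjusted p = 0.297).

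C1qc (1449401_at) went the other way. It read 12.49, 12.51 and 12.56 on CD133 low arrays, against 12.47, 12.86 and 12.92 on CD133 high arrays, so that replicates 2 and 3 were the 2 highest arrays and replicate 1 the lowest. The difference was 0.23 (SE 0.18, 95% interval −0.19 to 0.65, limma adjusted p = 0.518).

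Without CD133 high replicate 1, C1qb fell by 0.74 at its brightest probe set (limma, adjusted p = 0.0141; 0.0141 to 0.991 over the alternatives), and C1qc rose by 0.37 (adjusted p = 0.0498; 0.0498 to 0.99 over the alternatives). C1qa differed by −0.18 (adjusted p = 0.282). Set against C1qb within each array, C1qc stood 0.06, −0.13 and 0.07 from the CD133 low mean of that ratio on CD133 low arrays, against −0.04, 0.98 and 1.23 on CD133 high arrays, with replicates 2 and 3 apart from the rest.

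Csf1r, the receptor for the growth factors CSF1 and IL-34, had 3 probe sets that did not move together. The brightest (1419872_at) read 12.95, 12.79 and 12.78 on CD133 low arrays, against 12.93, 13.24 and 12.94 on CD133 high arrays, a difference of 0.20 (95% interval −0.20 to 0.60, limma adjusted p = 0.549). The second (1419873_s_at) read 12.46, 12.43 and 12.37 against 12.24, 12.31 and 12.36. Here the groups just failed to overlap, with a difference of −0.12 whose 95% interval includes 0 (−0.45 to 0.21).

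The third probe set of Csf1r (1423593_a_at) read 11.31, 11.24 and 11.30 on CD133 low arrays, against 11.08, 10.54 and 10.57 on CD133 high arrays. All CD133 high arrays were lower, replicates 2 and 3 most. Its difference was −0.55 (95% interval −0.99 to −0.12, limma adjusted p = 0.297), and without CD133 high replicate 1 it fell by 0.73 (adjusted p = 0.00724). A direction for Csf1r as a gene therefore depends on the probe set read.

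**Figure D2:**
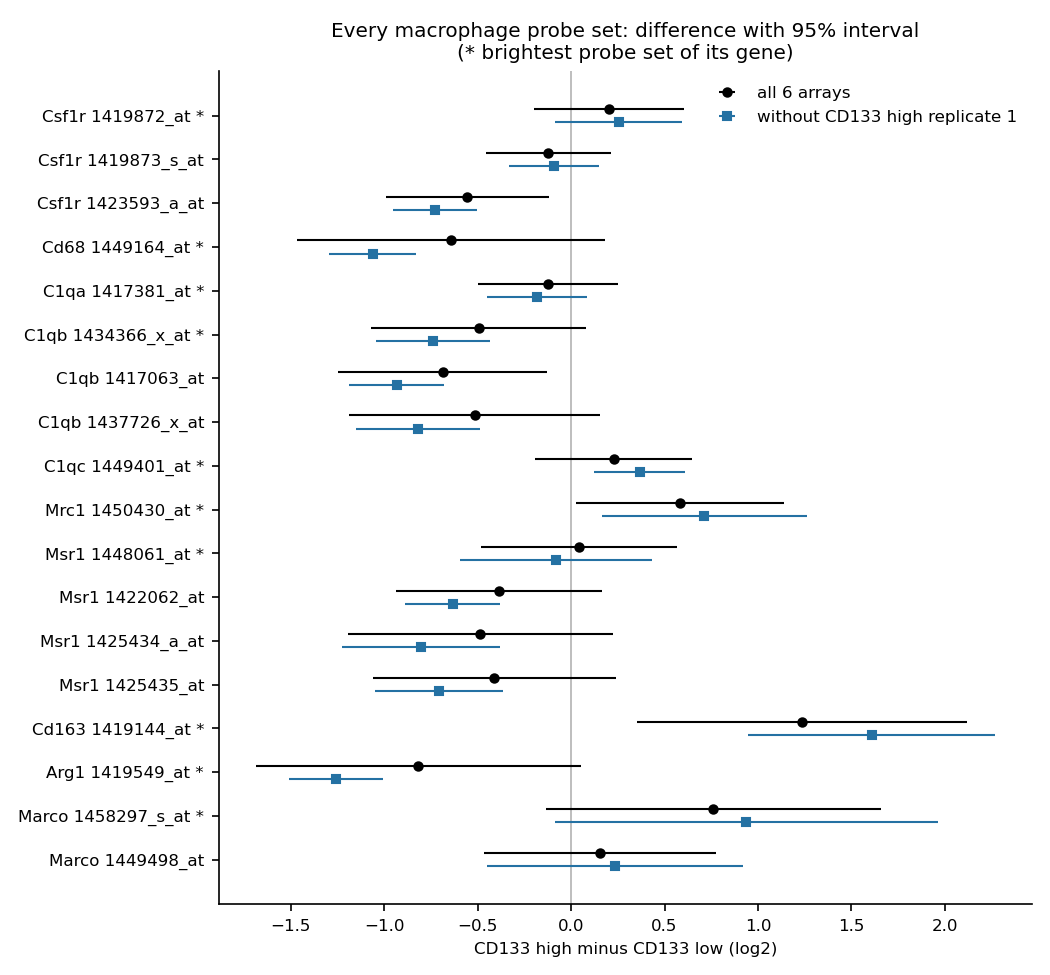
Difference between the fractions (CD133 high minus CD133 low, log2) with its 95% interval for each of the 18 probe sets, over all 6 arrays (black circles) and without CD133 high replicate 1 (blue squares). The intervals narrow and move away from 0 for Cd68, Arg1, C1qb and the dimmer probe sets of Msr1 when that array is left out, while the probe sets of Csf1r spread from 0.20 to −0.55 over all arrays.

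Counted over all 18 probe sets, 0 passed over all 6 arrays in limma, against 0.182% of all probe sets, with 2 higher and 2 lower at an unadjusted p under 0.05, which 15.7% of all probe sets reached. Of the 18, 3 had all CD133 high arrays above, against 10.3% of all probe sets, and 3 had them all below, against 10.5%. The median difference over the 18 was −0.25, which has the opposite sign to the median over the 10 brightest probe sets. Genes with several probe sets weigh more in the counts and median over the 18.

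Without CD133 high replicate 1, 5 of the 10 genes passed at their brightest probe sets, against 26.3% of all genes: Cd163 and C1qc rose, and Cd68, Arg1 and C1qb fell. By direction, 11.7% of all genes rose and 14.6% fell there. Over probe sets 2 of 18 rose and 9 fell, against 9.50% and 11.8% of all probe sets. The 9 belong to Csf1r, Cd68, C1qb, Msr1 and Arg1, with C1qb and Msr1 counted several times. Probe sets of the same gene are not independent, so this count is not a count of genes. With any other single array left out, 0 of the 10 genes passed. With CD133 high replicate 1 as the sole array of its fraction, limma called 0 of 18193 genes (0.00%), so the 0 of 10 found there says nothing about the macrophage genes; at an unadjusted p under 0.05 there were 0 of 10, against 11.4% of all genes. On CD133 high replicate 1, Csf1r, Cd68, Arg1, C1qa, C1qb and C1qc lay between −0.05 and 0.19 of the CD133 low mean. Cd163, Mrc1, Marco and Msr1 lay 0.49, 0.32, 0.41 and 0.29 above it. With the hybridisation controls in the fit, Cd68 and Arg1 differed by 0.15 and 0.03 and C1qc by −0.021, each opposite in sign to the fit without them. In that fit Cd163 and Mrc1 differed by 0.66 and 0.46, Marco by 0.32 and C1qb by −0.11, and 0 of the 10 passed.

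**Figure D3:**
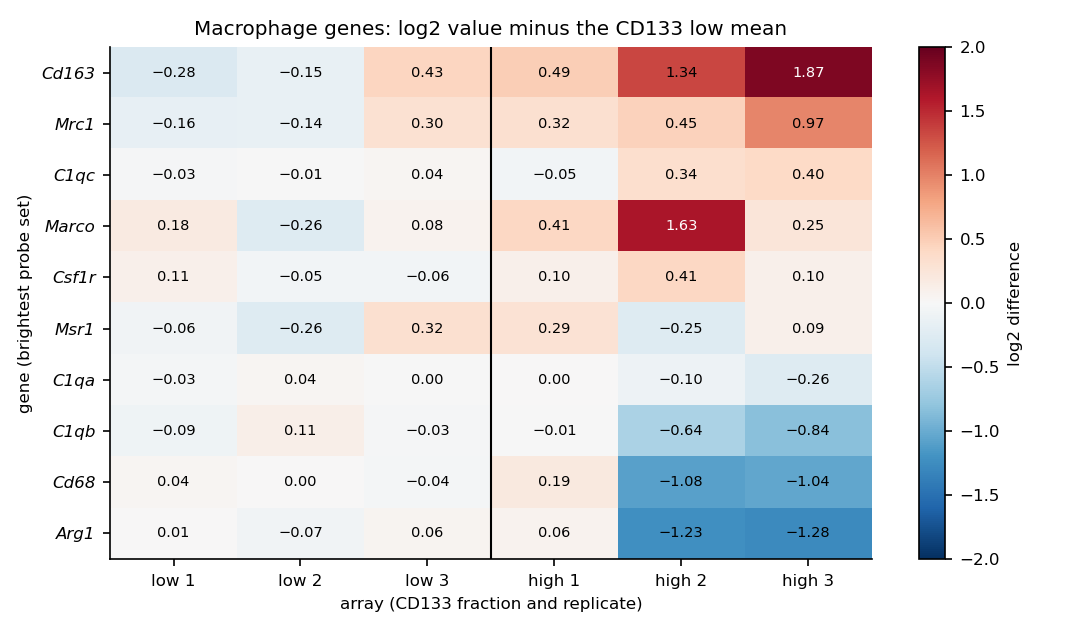
Log2 value of each gene at its brightest probe set minus its mean over the 3 CD133 low arrays, by array, with genes ordered by their value on CD133 high replicate 3. CD133 high replicates 2 and 3 run from above the CD133 low mean for Cd163 (1.34 and 1.87) to below it for Arg1 (−1.23 and −1.28), and CD133 high replicate 1 stays between −0.05 and 0.49.

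The unequal change of members was also taken within arrays, where a change common to both genes of a ratio cancels. The log ratio of Cd163 to Cd68, set to 0 at its CD133 low mean, was −0.33, −0.15 and 0.47 on CD133 low arrays, against 0.30, 2.42 and 2.92 on CD133 high arrays. That of Mrc1 to Arg1 was −0.17, −0.07 and 0.24 against 0.26, 1.69 and 2.25. With 3 arrays a group, the smallest p an exact two-sided permutation test can reach is 0.1. It gave 0.2 for Cd163 to Cd68, 0.1 for Mrc1 to Arg1, 0.2 for Mrc1 to Msr1 and 0.3 for C1qc to C1qb, with Benjamini-Hochberg adjusted values of 0.267 to 0.3 over these 4 pairs, which were chosen after the values were seen. In sorted bulk RNA such as this, fewer macrophages and less of a transcript per macrophage cannot be told apart for a single gene.

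By the rule for likeness, the 3 genes whose centred values lay closest to those of Arg1 over the 6 arrays were Aplp2, Nolc1 and Rrp1, at root mean square differences of 0.05, 0.07 and 0.07 among 10663 candidates, where Arg1 itself spanned 1.34. For Csf1r at its brightest probe set they were Kdm5c, Tmem164 and Fam131c (0.03, 0.03 and 0.04, with a span of 0.46), and for the mean of the C1q chains Fbxo9, Plxnd1 and Dcaf13 (0.02, 0.03 and 0.03, with a span of 0.28). None of these 9 genes is on the macrophage lists used here, and the values describe likeness over these arrays only.

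Around Csf1r, 15 genes of its ligands, adaptors and the transcription factors of the lineage were measured, and 0 of the 15 passed over all arrays in limma. Of the 15, 0 were higher and 2 lower at an unadjusted p under 0.05, against 18.2% of all genes in either direction. The ligand gene Csf1 read 10.53, 9.89 and 10.16 on CD133 low arrays, against 11.56, 9.88 and 10.03 on CD133 high arrays, with CD133 high replicate 1 alone high, and Il34 differed by −0.11. Spi1 differed by −0.04. Irf8, a transcription factor of monocytes and dendritic cells, differed by −0.63 and Inpp5d, the phosphatase SHIP1, by −1.12 (limma, adjusted p = 0.297 and 0.314). Maf, a transcription factor that drives many genes of resident macrophages, differed by 0.56. Pik3cd, a catalytic subunit of phosphoinositide 3-kinase, differed by 1.15 at its brightest probe set. Its dimmer probe sets differed by −1.05, −0.22, 2.06, −0.38 and −1.50, so its direction depends on the probe set read. On the remaining arrays without CD133 high replicate 1, Inpp5d fell by 1.70 and Maf rose by 0.83 (limma, adjusted p = 0.00211 and 0.00756). Of the 15, 2 rose and 3 fell there, against 11.7% and 14.6% of all genes.

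Of the scavenger, phagocytic and Fc receptors, a list that holds 5 of the 10 genes, 28 were measured and 0 passed over all arrays in limma. Of the 28, 2 were higher and 1 lower at an unadjusted p under 0.05, against 18.2% of all genes in either direction. The 2 higher were Cd163 and Mrc1, already given above, and the 1 lower was Fcgr1. The list median was 0.07. Fcgr1, the high-affinity receptor for IgG, differed by −0.56. The collagen receptor gene Mrc2, the scavenger receptor gene Stab2 and the collectin gene Colec12 differed by 1.01, 1.24 and 0.51 and did not reach that p. Mrc2 read 9.55, 9.54 and 9.78 on CD133 low arrays, against 9.56, 11.12 and 11.24 on CD133 high arrays, the split seen for C1qc. In the comparison without CD133 high replicate 1, 6 genes of this list rose and 4 fell, against 11.7% and 14.6% of all genes.

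Complement genes showed 0 of 20 past the test over all arrays in limma, with a list median of −0.04. Of the 20, 0 were higher and 2 lower at an unadjusted p under 0.05, against 18.2% of all genes in either direction. The lower ones were Cr2, the complement receptor of B cells (−1.74), and Cd55, which dissolves complement convertases (−0.82). Cfp, properdin, which stabilises the alternative pathway convertase, differed by −0.75, and C2, a component of the classical pathway, by 0.59. Leaving out CD133 high replicate 1, Cfp fell by 1.13 and C2 rose by 0.94 (limma, adjusted p = 0.00369 and 0.0101). Of the 20, 2 rose and 5 fell there, the members C1qc and C1qb among them, against 11.7% and 14.6% of all genes.

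Around Arg1, 24 genes of arginine metabolism and alternative activation had a median of −0.27, with values of 0.18, −0.66 and −0.63 on CD133 high replicates 1, 2 and 3. Over all arrays 0 of 24 passed in limma. Of the 24, 2 were higher and 1 lower at an unadjusted p under 0.05, against 18.2% of all genes in either direction. Irf4, a transcription factor used by alternatively activated macrophages and by lymphocytes, differed by −1.77 (limma, adjusted p = 0.0699). The arginine transporter gene Slc7a2 and the checkpoint ligand gene Pdcd1lg2 differed by 0.53 and 0.93, and the urea cycle gene Asl by −0.50. When CD133 high replicate 1 was left out, 12 genes of this list fell and 2 rose, against 14.6% and 11.7% of all genes. Arg1 was among those that fell.

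The 17 genes of classical activation had a median of −0.08 and 0 past the test in limma. Of the 17, 0 were higher and 1 lower at an unadjusted p under 0.05, against 18.2% of all genes in either direction. Their median was 0.28, −0.51 and −0.36 on CD133 high replicates 1, 2 and 3. When replicate 1 was left out, 1 gene rose and 5 fell, against 11.7% and 14.6% of all genes. The gene lower over all arrays was Ccl5, a chemokine also made by T cells (−1.51, adjusted p = 0.0664). Il18, Cd40 and Il12b differed by −0.64, 0.40 and 0.41. Nos2, the nitric oxide synthase that competes with Arg1 for arginine, read 6.31, 5.71 and 6.59 on CD133 low arrays, against 7.14, 5.29 and 6.69 on CD133 high arrays, with full overlap.

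For 44 further markers of macrophages and monocytes the median was −0.03, with 0 past the test over all arrays in limma. Of the 44, 5 were higher and 3 lower at an unadjusted p under 0.05, against 18.2% of all genes in either direction. Adgre1, which encodes the macrophage antigen F4/80, read 11.21, 11.04 and 11.34 on CD133 low arrays, against 11.29, 11.15 and 11.34 on CD133 high arrays, a difference of 0.06. Cd14, Ctss and Lyz2 differed by 0.06, 0.01 and −0.12. Of other common macrophage genes, Aif1, Mpeg1 and Lgals3 differed by −0.65, −0.38 and −0.49 over all arrays and fell by 0.98, 0.53 and 0.81 without CD133 high replicate 1 (limma, adjusted p = 0.0206, 0.0271 and 0.0214). These 7 genes were chosen after their values were seen. Ccr2, the chemokine receptor that brings monocytes out of the marrow, read 11.77, 11.75 and 11.98 against 11.63, 10.58 and 10.39, a difference of −0.97 (limma, adjusted p = 0.297). Ccl8, a chemokine that attracts monocytes, read 9.58, 10.23 and 9.79 against 9.98, 12.06 and 11.80, a difference of 1.42 (adjusted p = 0.303). Gpnmb differed by 0.54 and Cyba, a subunit of the phagocyte oxidase, by −0.92. Without CD133 high replicate 1, 7 of the 44 rose, Ccl8 and Gpnmb among them, and 13 fell, Ccr2 and Cyba among them. Of all genes, 11.7% rose and 14.6% fell there.

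Lists of other leukocytes were lower on CD133 high arrays in several cases, with different splits among the 3 arrays. On CD133 high replicates 1, 2 and 3 the pan-leukocyte genes (20 measured) had medians of −0.06, −0.94 and −1.07, neutrophil genes (13) of 0.56, −0.54 and −0.78, T and natural killer cell genes (15) of −0.90, −1.55 and −1.75, and B-cell genes (10) of −2.26, −1.46 and −1.16, lowest on replicate 1. Mast cell genes (9) had medians of −0.48, −1.16 and −1.49, and dendritic cell genes (10) of −0.21, −0.16 and −0.91. Over all arrays 5 T and natural killer cell genes and 4 B-cell genes fell in limma, and 0 genes of the other 13 lists passed. The share of all genes called was 0.253%. The summed linear signal of the neutrophil list was 48337 to 56907 on CD133 low arrays, against 77672, 37135 and 25850 on CD133 high arrays, with 0 of its genes listed at 0. That of the B-cell list was 31388 to 35134 against 6893, 17092 and 17394, also with 0 listed at 0. For the 10 macrophage genes the median was 0.14, 0.12 and 0.10 at their brightest probe sets, over genes that went both ways. Over all 18 probe sets it was 0.10, −0.45 and −0.40, with replicates 2 and 3 lower. That median counts C1qb, Msr1 and Csf1r several times, whereas the other lists count each gene once. The part of the other leukocytes in the values of Arg1, Cd68 or Irf4 was not tested.

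**Figure D4:**
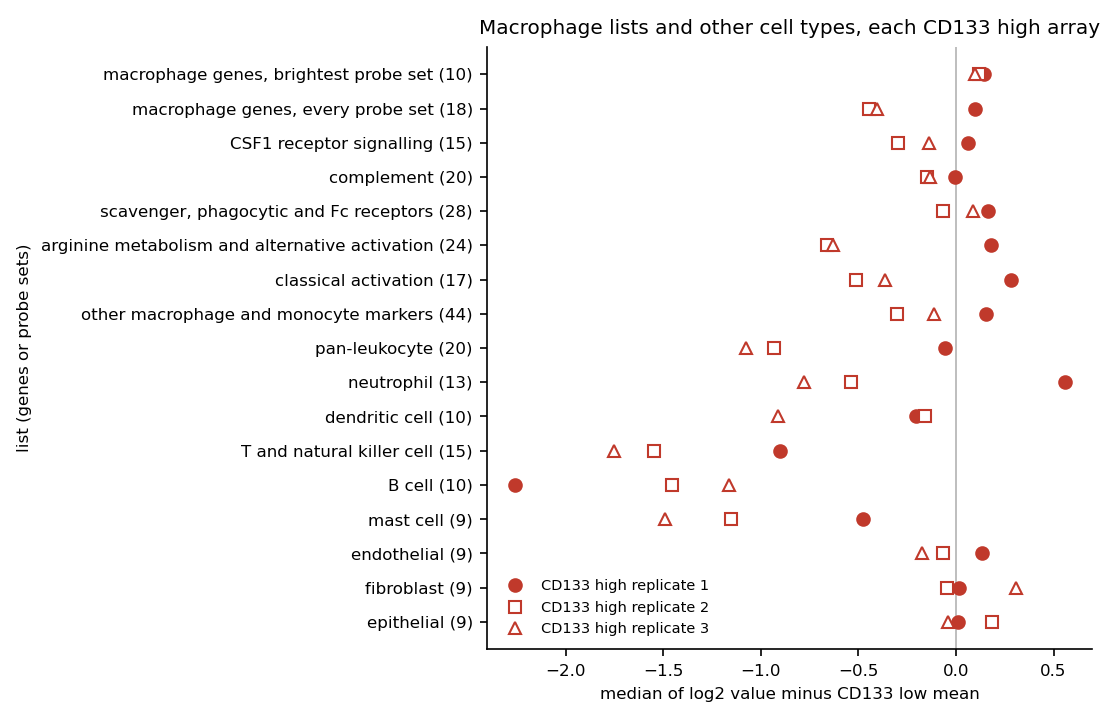
Median over the genes of each list of the log2 value minus the CD133 low mean, for each CD133 high array, with the number of genes (or, for every probe set, of probe sets) in parentheses. The 10 macrophage genes lie between 0.10 and 0.14 at their brightest probe sets, but at 0.10, −0.45 and −0.40 over all 18 probe sets; lymphocyte lists lie at −0.90 or lower and most myeloid lists separate replicate 1 from replicates 2 and 3.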

How the data were processed

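RNA of 3 CD133 high and 3 CD133 low samples was measured on Affymetrix mouse arrays. In the deposited table each probe set has a log2 value, a scale read from the numbers since the labels name none; the authors' summary and scaling method is not given in sources used here. After 64 control probe sets were left out, 45037 remained, of which 34945 have 1 gene, 932 several and 9160 none in the platform annotation; 34741 matched RefSeq by Entrez gene, with 0 symbols changed. limma 3.58.1 in R 4.3.3 fitted a linear model per probe set (variance trend, two-sided, Benjamini-Hochberg over 45037, threshold 0.05), with no covariate, filter or added normalization. The code was tested on simulated data. The number of arrays limits the precision.

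The members and lists were chosen with earlier results of these data known. Named genes were the members, up to 4 other genes per macrophage list with the smallest p, and the 3 genes with a mean log2 of at least 7 closest by root mean square difference; others were chosen after their values were seen. Ptprc, Cdh1 and Prom1 check the samples. The alternatives were quantile normalization, equal 75th percentiles, leaving out the dimmest probe sets, a floor of 5, other variance models, averaging each gene's probe sets, the hybridisation controls as a covariate, a threshold of 0.1, leaving out each array, and, chosen after seeing the data, CD133 high replicate 1 alone.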

Additional observations from a re-analysis of the deposited data

How the results depend on the processing

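The count of called genes was 0 of 10 under each alternative but one, and ranged from 0 to 5 when single arrays were left out, the 5 coming without CD133 high replicate 1. The median difference, 0.12 as reported, was 0.21 with quantile normalization and turned to −0.14 when each gene's probe sets were averaged; with single arrays left out it ranged from 0.05 to 0.19. Under that averaging Csf1r turned to −0.16 and Msr1 to −0.31. In the fit on the hybridisation controls, which leans on CD133 high replicate 1, Cd68 turned to 0.15, C1qc to −0.021 and Arg1 to 0.03. Msr1 ranged from −0.085 to 0.21 with single arrays left out, at −0.085 without CD133 low replicate 2 and −0.08 without CD133 high replicate 1. In CD133 high replicate 1 alone Cd68 stood at 0.19, C1qa at 0.0019, C1qc at −0.050 and Arg1 at 0.064. The cause was not tested. Cd163, Mrc1, Marco and C1qb kept their direction under all 16 alternatives, but many of these could not turn it. The probe set filter, the floor, the variance models and the threshold left these differences unchanged. For Cd163, Mrc1 and Marco, whose groups did not overlap, leaving out arrays could not turn the sign either. Their size did vary: with the hybridisation controls the 4 genes were at 0.66, 0.46, 0.32 and −0.11. In CD133 high replicate 1 alone they were at 0.49, 0.32, 0.41 and −0.0098, and Marco was 0.33 without CD133 high replicate 2. No paired analysis was possible because the labels number no replicates.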

Other observations

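Of the 44 further macrophage and monocyte markers, 7 rose and 13 fell without CD133 high replicate 1, against 11.7% and 14.6% of all genes. Here 4 of those that rose are given, chosen after their values were seen. Lyve1, a hyaluronan receptor of lymphatic vessels and of some tissue macrophages, read 8.25, 8.76 and 8.99 on CD133 low arrays, against 8.64, 10.43 and 10.79 on CD133 high arrays. Folr2, a folate receptor, read 7.82, 8.40 and 8.33 against 8.30, 9.37 and 9.42. Cx3cr1, the fractalkine receptor, read 7.72, 8.03 and 7.99 against 8.01, 9.26 and 10.11, and Siglec1, the sialoadhesin CD169, read 5.81, 6.30 and 6.28 against 6.25, 7.35 and 7.74. CD133 high replicates 2 and 3 were the highest arrays for each of these 4 genes, and CD133 high replicate 1 lay within the CD133 low range. None passed over all arrays (limma, adjusted p = 0.323, 0.311, 0.312 and 0.318). Without CD133 high replicate 1 they rose by 1.94, 1.21, 1.77 and 1.41 (adjusted p = 0.0074, 0.0143, 0.0113 and 0.0172). Other markers of tissue macrophages gave other values: in the same comparison Apoe fell by 0.66 (adjusted p = 0.0311), and Adgre1, Pf4 and Timd4 differed by 0.05, −0.02 and −0.39 (adjusted p = 0.829, 0.895 and 0.353).

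Of the 24 genes of arginine metabolism and alternative activation, 12 fell and 2 rose in that comparison, against 14.6% and 11.7% of all genes. The 3 that follow are among those that fell and were chosen in the same way. Ccl17, a chemokine for T cells, read 11.69, 11.42 and 10.99 against 11.73, 10.11 and 9.09, and Ccl24, a chemokine for eosinophils, read 10.80, 10.88 and 10.27 against 11.08, 9.03 and 8.65. Retnla, a marker of alternative activation in mice, read 11.73, 11.89 and 11.53 against 12.38, 11.01 and 10.43. The 3 fell by 1.76, 1.81 and 0.99 without CD133 high replicate 1 (adjusted p = 0.0222, 0.00709 and 0.0248), and with all arrays their adjusted p from limma was 0.412, 0.401 and 0.637.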
